A study of Mus musculus with 16 samples.

Results

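The genes described here are 9 immediate early genes for transcription factors, namely the orphan nuclear receptors *Nr4a1*, *Nr4a2* and *Nr4a3*, the zinc finger factors *Egr1* and *Egr2*, and the AP-1 subunits *Fos*, *Fosb*, *Jun* and *Junb*. They were chosen by name and are 9 of the 24469 gene symbols in the tables. Immediate early genes are transcribed within minutes of a signal by factors already present in the cell, and their products then act on later genes. In T cells they are induced by antigen receptor signaling through calcium and MAP kinases, and NR4A receptors are known to restrain T cells in tumors. Freeing cells from tissue with enzymes is also known to induce FOS, JUN and EGR genes.

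RNA of single cells was measured in MC38 tumors, which grow from a mouse colon adenocarcinoma line, and in spleens on day 19 after implant. Mice were 8-week-old littermates of the C57BL/6 background bought from Jackson Laboratories, either *Aire*+/+ or *Aire*-/-, and received an antibody to PD1 (aPD1) or an Isotype Control. *Aire* encodes a regulator that makes the thymus display antigens of other tissues, and PD1 is an inhibitory receptor of T cells. Each condition pooled tumors from 4 to 6 mice, and spleens were pooled as well. CD45+ and CD8+ cells were sorted from each pool, and each of the 16 libraries is the only one of its condition, tissue and sort. Sets of 4 values below are in the order *Aire*+/+ isotype, *Aire*+/+ aPD1, *Aire*-/- isotype and *Aire*-/- aPD1.

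Tumor libraries were deeper than spleen libraries in both sorts. The CD45+ tumor libraries held 38930017, 28760714, 24639370 and 23282799 UMIs (unique molecular identifiers) in 2930, 2208, 1856 and 2075 cells. The CD8+ tumor libraries held 35163274, 27052444, 22414023 and 23271160 UMIs in 2684, 2221, 1858 and 2212 cells. In spleen the CD45+ libraries held 12131827, 10927391, 11179227 and 12618095 UMIs in 2095, 2088, 2023 and 2393 cells. The CD8+ spleen libraries held 20126140, 19167788, 15590029 and 16279427 UMIs in 2898, 2944, 2339 and 2629 cells. The median UMIs per cell lay between 8883 and 12251.5 in tumor libraries and between 4413.5 and 6405 in spleen libraries. The median mitochondrial share of UMIs also differed, at 1.75% to 2.21% in tumor and 3.35% to 4.9% in spleen libraries, and its part in the tissue differences was not tested. The 120 pairs of libraries shared 2 to 18 cell barcodes, with a median of 7.

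*Aire*, the targeted gene, was close to absent in these cells. It had 0, 2, 1 and 0 UMIs in CD45+ tumor libraries, 6, 3, 1 and 0 in CD8+ tumor libraries, 2, 5, 4 and 0 in CD45+ spleen libraries, and 0 UMIs in each CD8+ spleen library. The *Aire*-/- isotype libraries held 1, 1 and 4 of these UMIs, and such counts are too few to check the genotype.

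Cell types were assigned by UMIs of marker genes, and the level of a gene is its counts-per-million value (CPM), from UMIs summed over the cells of a type in a library. UMIs are not scaled by transcript length, so tests and ratios compared levels within a gene. A gene called low, plentiful or most abundant is so by its UMIs alone. Markers left out of the assignment were highest in the named type in each library with enough cells for regulatory T cells, B cells, macrophages, monocytes, neutrophils and mature dendritic cells. For NK cells this held in 4 of 8 libraries, for conventional dendritic cells in 2 of 6, for CD4+ T cells without *Foxp3* in 2 of 8 and for CD8+ T cells in 0 of 8. The NK markers reached 4196 CPM in CD8+ T cells, against 3134 to 7526 CPM in NK cells, and those of conventional dendritic cells 26999 CPM in mature dendritic cells, against 9001 to 13388 CPM in their own type. The markers of CD4+ and CD8+ T cells are shared by T cells, and were highest in regulatory T cells at up to 3412 CPM against 1906 to 3001 CPM in CD8+ T cells of the CD45+ sort.

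The comparison of tumor with spleen asks how far the genes are expressed in cells within the tumor relative to the same cell type outside it. Among CD8+ T cells of the CD8+ sort, each of the 9 genes was higher in the tumor than in the spleen in 4 of 4 conditions, and no tumor library overlapped a spleen library. By the edgeR test 9 of 9 genes passed, against 37.6% of the 11331 genes tested that passed as higher in tumor. The median log2 difference was 4.20 over the 9 genes and -0.03 over the genes tested. The fold was over 4 in 1097 of the genes tested. Each condition is 1 pool of mice with no replicate library, so the test sets the tissue difference of a gene against its variation over the 4 conditions. The edgeR fit draws that variation toward a trend over all genes tested, so the p-values rest in part on other genes.

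Of the NR4A receptors, *Nr4a1* is used as a marker of recent antigen receptor signaling. It stood at 242, 399, 324 and 494 CPM in tumor CD8+ T cells and at 13.0, 14.4, 8.49 and 10.7 CPM in spleen. The sum over libraries was 29.9 times higher in tumor, with a 95% counting interval of 27.9 to 32.1, and the edgeR log2 difference was 4.83 ± 0.21 (SE, adjusted p = 6.6e-07, higher in 4 of 4 conditions). *Nr4a2*, a related receptor, stood at 208, 284, 233 and 286 CPM in tumor and at 4.56, 5.0, 2.52 and 2.13 CPM in spleen. Its log2 difference of 6.04 ± 0.22 was the largest of the 3 receptors (edgeR adjusted p = 2.7e-07, 4 of 4 conditions). The third receptor, *Nr4a3*, stood at 52.4, 71.3, 61.3 and 62.7 CPM in tumor and at 2.76, 4.72, 2.59 and 2.58 CPM in spleen. Its log2 difference was 4.20 ± 0.12 (edgeR adjusted p = 1.4e-07, 4 of 4 conditions). A single spleen cell held from 15.2% to 55.3% of the *Nr4a2* UMIs of its library, and 37.2% of the *Nr4a3* UMIs in the *Aire*+/+ aPD1 spleen.

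The EGR factors differed less between tissues. *Egr1*, a target of the MAP kinase pathway, stood at 77.5, 116, 117 and 187 CPM in tumor and at 22.9, 24.6, 24.1 and 21.0 CPM in spleen. The 4 spleen levels lay close together, while the tumor levels spread more widely, from the *Aire*+/+ isotype library at the low end to the *Aire*-/- aPD1 library at the high end. The log2 difference was 2.27 ± 0.20 (edgeR adjusted p = 2.3e-05, 4 of 4 conditions). *Egr2*, which limits T cell activation, was low in both tissues, at 9.65, 8.28, 7.17 and 8.24 CPM in tumor and 4.45, 5.22, 5.10 and 5.48 CPM in spleen. Its log2 difference of 0.64 ± 0.13 was the smallest of the 9 genes (edgeR adjusted p = 0.0023, 4 of 4 conditions).

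The AP-1 subunits pair with each other to bind DNA, FOS proteins only as partners of JUN proteins. *Fos* stood at 261, 193, 204 and 303 CPM in tumor and at 9.27, 9.12, 5.37 and 8.77 CPM in spleen, a log2 difference of 4.78 ± 0.14 (edgeR adjusted p = 1.4e-07, 4 of 4 conditions). *Fosb* was nearly absent from spleen, at 0.583, 1.15, 0.796 and 0.516 CPM from 52 UMIs in all, against 69.9, 89.3, 71.3 and 113 CPM in tumor. The ratio of sums was 110.2 with a counting interval of 84.0 to 148, and the log2 difference of 6.69 ± 0.16 was the largest of the 9 genes (edgeR adjusted p = 5.8e-08, 4 of 4 conditions). *Jun* stood at 212, 185, 153 and 144 CPM in tumor and at 31.4, 20.3, 21.3 and 24.0 CPM in spleen, a log2 difference of 2.76 ± 0.09 (edgeR adjusted p = 1.7e-07, 4 of 4 conditions). *Junb* was plentiful in the tumor, at 1981, 2411, 2086 and 2243 CPM, and was also found in spleen at 197, 169.6, 171 and 189 CPM. The log2 difference was 3.50 ± 0.09 (edgeR adjusted p = 5.8e-08, 4 of 4 conditions). The 4 conditions of a tissue lay closer together for *Junb* than the tissues did.

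**Figure D1:**
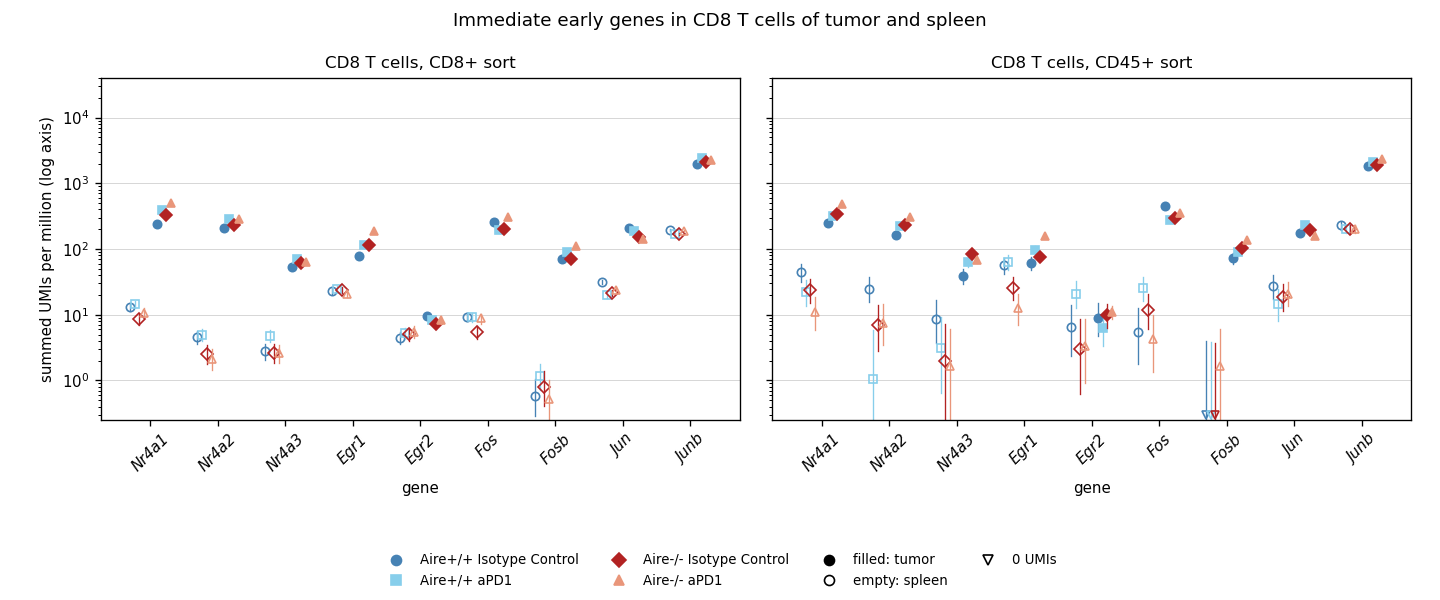
Levels of the 9 genes in CD8+ T cells of the CD8+ and CD45+ sorts, in CPM on a log axis, with filled symbols for tumor libraries, empty symbols for spleen libraries, lines for 95% Poisson intervals (ending at the foot of the axis where they reach below it) and a downward triangle for 0 UMIs. Tumor and spleen libraries of the CD8+ sort do not overlap for any of the 9 genes, and *Egr2* is closest, at 7.17 to 9.65 CPM in tumor and 4.45 to 5.48 CPM in spleen.

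Each of the 9 genes was detected in a larger share of tumor than of spleen CD8+ T cells of the CD8+ sort at equal depth, and the shares differed widely between genes. *Nr4a1* had a UMI in 63.4%, 72.5%, 65.9% and 66.7% of tumor cells of the CD8+ sort, and in 30%, 37.9%, 32% and 40% after each cell was thinned to 2000 UMIs. In spleen the shares were 2.73%, 2.54%, 2.29% and 2.41%, and 1.22%, 1.07%, 0.973% and 1.24% after thinning. *Junb* was found in 85.7% to 90% of thinned tumor cells and 25.1% to 27.8% of thinned spleen cells. For *Fos* the thinned shares were 22.4% to 28.8% in tumor and 0.885% to 1.51% in spleen. *Egr2* was found in 1.52% to 1.93% of thinned tumor cells and 0.708% to 0.956% of thinned spleen cells. At 2000 UMIs, 42.1%, 46.6%, 39.1% and 48.3% of tumor CD8+ T cells had UMIs of at least 3 of the 9 genes, against 1.12%, 0.891%, 0.619% and 0.876% in spleen. None of the 9 genes was found in 5.33%, 3.59%, 4.88% and 4.41% of thinned tumor cells and in 66.8%, 70.1%, 70.3% and 66.7% of thinned spleen cells. Within a library the genes were weakly correlated across tumor cells, with a highest r of 0.42 for *Nr4a1* with *Junb* and of 0.35 for *Egr1* with *Fos*, both in *Aire*-/- aPD1, a description over cells that share a library and vary in depth.

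RNA free in the droplets adds UMIs to cells that lack a gene, and the genes were therefore also read in plasmacytoid dendritic cells of the same tumor libraries. Markers left out of the assignment of these cells were found in them but were not compared with other types. Of 109, 36 and 28 such cells in the *Aire*+/+ isotype, *Aire*+/+ aPD1 and *Aire*-/- isotype libraries of the CD8+ sort, 2.75%, 0% and 0% had a UMI of *Nr4a2*, at median depths of 12429, 12623.5 and 12799 UMIs. CD8+ T cells of these libraries, at median depths of 10955.5, 10209 and 10053 UMIs, had one in 62.6%, 70.2% and 62.4% of cells. *Nr4a1* was found in 32.1%, 58.3% and 32.1% of the dendritic cells, at 0.318, 0.348 and 0.391 times the T cell level, *Fosb* stood at 0.519, 0.632 and 0.789 times that level and *Egr1* at 0.316, 0.0933 and 0.383 times, and whether these UMIs come from free RNA or from the dendritic cells was not tested. The *Aire*-/- aPD1 library had 10 such cells, with *Nr4a1* at 0.608, *Nr4a2* and *Egr1* at 0 and *Fosb* at 1.91 times the T cell level. The *Junb* level of the dendritic cells was 0.0763, 0.0684 and 0.124 times that of the T cells, while their *Fos* level was 5.68, 8.93 and 7.74 times higher and their *Jun* level 8.05, 8.39 and 9.65 times higher. The spleen shares of *Nr4a2* in CD8+ T cells, 0.615% to 1.01%, come from other libraries, and the part of free RNA in them was not tested.

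Within the CD8+ sort, CD8+ T cells with *Ccl5*, a chemokine of effector and memory cells, were also taken alone, so that the 9 genes could be compared between tissues within more alike cells. *Ccl5*-positive cells (at least 2 UMIs) numbered 1217, 1234, 897 and 1497 in tumor libraries of 2684, 2221, 1858 and 2212 cells. In spleen they numbered 475, 444, 517 and 539 in libraries of 2898, 2944, 2339 and 2629 cells. The comparison of all CD8+ T cells thus sets tissues of different make-up against each other. In *Ccl5*-positive cells 9 of 9 genes were higher in tumor by the edgeR test, against 30.4% of the 10266 genes tested. Part of this count follows from the low-count filter, which *Nr4a3*, *Egr2* and *Fosb* passed through their tumor UMIs. The median log2 difference of the 9 genes was 3.84, with a median of -0.03 over the genes tested.

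In *Ccl5*-positive cells *Nr4a1* stood at 320.1, 496, 431 and 589 CPM in tumor and at 6.66, 14.4, 5.87 and 10.1 CPM in spleen, a log2 difference of 5.62 ± 0.16 (edgeR adjusted p = 1.1e-08, 4 of 4 conditions). *Nr4a2* stood at 187, 279, 194 and 274 CPM in tumor and at 2.82, 12.7, 2.04 and 2.13 CPM in spleen (log2 5.61 ± 0.28, edgeR adjusted p = 3.3e-07, 4 of 4 conditions). *Egr1* differed between tissues by a log2 of 3.33 ± 0.23 (edgeR adjusted p = 2.4e-06, 4 of 4 conditions), and its spleen levels were 9.74, 22.1, 9.19 and 11.2 CPM. *Egr2* differed by a log2 of 1.83 ± 0.34 (edgeR adjusted p = 0.0014, 4 of 4 conditions), with 14.2, 10.3, 10.6 and 9.96 CPM in tumor and 1.28, 6.19, 2.04 and 3.19 CPM in spleen. The AP-1 genes had log2 differences from 3.0 for *Jun* to 6.55 for *Fosb*, each higher in 4 of 4 conditions. In the *Ccl5*-positive spleen cells of *Aire*+/+ aPD1, 1 cell held 65.1% of the *Nr4a2* UMIs and 69.6% of the *Nr4a3* UMIs. Without that condition the log2 difference of *Ccl5*-positive cells went from 5.61 to 6.52 for *Nr4a2* and from 3.84 to 5.12 for *Nr4a3*.

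CD8+ T cells of the CD45+ sort gave separate libraries from the same conditions, with 129, 205, 206 and 707 cells in tumor and 139, 153, 149 and 187 in spleen. Of the 9 genes 8 were higher in tumor by the edgeR test, against 28.2% of the 7946 genes tested, with a median log2 difference of 3.73 over the 9 genes and -0.04 over the genes tested. *Nr4a1* stood at 253, 313, 337 and 483 CPM in tumor and 44.3, 22.0, 23.8 and 10.9 CPM in spleen. In the *Aire*+/+ isotype spleen, 1 cell held 34 of the 41 *Nr4a1* UMIs, and 18 of the 23 *Nr4a2* UMIs likewise came from 1 cell. The *Nr4a1* log2 difference was 3.73 ± 0.22 (edgeR adjusted p = 2.7e-11, 4 of 4 conditions).

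*Fos* in these cells stood at 445, 279, 297 and 351 CPM in tumor and at 5.40, 25.1, 11.9 and 4.20 CPM in spleen (log2 4.81 ± 0.23, edgeR adjusted p = 1.1e-12, 4 of 4 conditions). *Fosb* had 2 UMIs in spleen, both in *Aire*-/- aPD1, and the ratio of sums was 238 with a counting interval of 65.8 to 1967. *Fosb*, *Fos*, *Nr4a2* and *Nr4a3* passed the low-count filter through their tumor UMIs, so part of the count of genes higher in tumor follows from that filter. *Egr1* passed the edgeR test with a log2 of 1.30 ± 0.30 (adjusted p = 9.8e-04, 4 of 4 conditions), though its tumor levels of 60.7, 95.9, 76.1 and 155 CPM overlapped spleen levels of 56.2, 62.8, 25.8 and 12.6 CPM, and with DESeq2 (log2 1.35) it did not pass. *Egr2* did not pass, at 8.97, 6.17, 9.77 and 10.9 CPM in tumor and 6.48, 20.9, 2.98 and 3.36 CPM in spleen (log2 0.15 ± 0.43, edgeR adjusted p = 0.79, higher in 3 of 4 conditions). Without *Aire*+/+ isotype the log2 difference went from 4.46 to 5.46 for *Nr4a2* and was 4.88 for *Nr4a3*, without *Aire*+/+ aPD1 from 4.81 to 5.58 for *Fos*, and without *Aire*-/- aPD1 from 1.30 to 0.63 for *Egr1*.

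Few CD4+ T cells without *Foxp3* were found in tumor (22, 35, 27 and 36, against 67, 86, 140 and 131 in spleen). Of the 7 genes with enough UMIs to test, 6 were higher in tumor by the edgeR test, against 14.4% of the 4289 genes tested. Part of this count follows from the low-count filter, which genes including *Nr4a1*, *Nr4a2*, *Fos* and *Fosb* passed through their tumor UMIs. The median log2 difference was 4.74 over the 7 genes and -0.05 over the genes tested. *Nr4a1* stood at 449, 626, 739.7 and 787 CPM in tumor and at 12.3, 48.3, 6.59 and 37.1 CPM in spleen (log2 4.74 ± 0.34, edgeR adjusted p = 2.1e-07, 4 of 4 conditions). *Fos* ranged widely among tumor libraries, at 1496, 184, 1856 and 969 CPM against 7.39, 24.2, 11.9 and 12.4 CPM in spleen (log2 6.24 ± 0.47, edgeR adjusted p = 3.7e-07, 4 of 4 conditions). In *Aire*-/- isotype, 1 of the 27 tumor cells held 176 of 434 *Fos* UMIs, and without *Aire*+/+ aPD1 the log2 difference of *Fos* was 7.03. *Nr4a2* had 3 UMIs in spleen (ratio of sums 74.3, counting interval 24.6 to 367) and *Fosb* had 1 (328, 57.7 to 13042). *Egr1* did not pass, with 37.4, 46.0, 453 and 94.9 CPM in tumor and 91.2, 37.4, 29.0 and 99.0 CPM in spleen (log2 1.14 ± 0.61, edgeR adjusted p = 0.19, higher in 2 of 4 conditions), and without *Aire*-/- isotype its log2 difference was -0.27. *Nr4a3* and *Egr2* were not tested, with 42 and 10 UMIs in tumor and 8 and 42 in spleen.

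NK cells, which carry no rearranged antigen receptor, numbered 104, 134, 156 and 269 in tumor and 85, 49, 58 and 55 in spleen. Of the 9 genes 8 were higher in tumor by the edgeR test, against 22.6% of the 7316 genes tested, with a median log2 difference of 2.97 over the 9 genes and -0.02 over the genes tested. *Nr4a1* stood at 220.0, 342, 407 and 607 CPM in tumor and at 23.3, 36.3, 20.7 and 20.1 CPM in spleen (log2 4.31 ± 0.21, edgeR adjusted p = 5.9e-12, 4 of 4 conditions). *Fosb* had 772 UMIs in tumor and 0 in spleen, so it was at least 31.6-fold higher against a floor of 3 counts over the 4 spleen libraries. *Nr4a3* had 4 UMIs in spleen (log2 4.31 ± 0.41, edgeR adjusted p = 6.0e-08, 4 of 4 conditions). *Fosb*, *Nr4a3*, *Nr4a2*, *Egr1* and *Egr2* passed the low-count filter through their tumor UMIs, so part of the count of genes higher in tumor follows from that filter. *Junb* stood at 1604, 1798, 1666 and 2027 CPM in tumor and at 630.0, 535, 591 and 491 CPM in spleen (log2 2.02 ± 0.10, edgeR adjusted p = 1.3e-11, 4 of 4 conditions). *Egr1* passed the test (log2 1.88 ± 0.47, edgeR adjusted p = 0.0033) and was higher in tumor in 3 of 4 conditions, since the *Aire*-/- isotype spleen stood at 159 CPM, with 36 of 46 UMIs from 1 cell, against 2.92, 0 and 4.02 CPM in the other spleens. Without that condition the log2 difference of *Egr1* was 5.80, and without *Aire*-/- aPD1 it was 1.22. *Egr2* did not pass (log2 0.76 ± 0.52, edgeR adjusted p = 0.25, higher in 3 of 4 conditions), though without *Aire*-/- isotype it did (log2 2.19).

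In monocytes 9 of 9 genes were higher in tumor by the edgeR test, against 27.2% of the 8833 genes tested. The median log2 difference of the 9 genes was 6.19, or 4.88 with *Nr4a3* at its lower bound, and -0.02 over the genes tested. Tumor libraries held 785, 534, 502 and 398 monocytes and spleen libraries 157, 112, 104 and 61. *Nr4a1*, which patrolling monocytes need to develop, was the member closest between tissues, at 1019, 1029, 1085 and 1129.7 CPM in tumor and 505, 609, 493 and 688 CPM in spleen. Its edgeR log2 difference was 1.30 ± 0.10 (adjusted p = 4.2e-09, 4 of 4 conditions), where the ratio of summed CPM gave 0.94, since edgeR rescales libraries by their composition. *Nr4a2* stood at 73.4, 104, 191 and 246 CPM in tumor and had 4 UMIs in spleen (log2 7.21 ± 0.25, edgeR adjusted p = 1.9e-13, 4 of 4 conditions). *Nr4a3* had 663 UMIs in tumor and 0 in spleen, so it was at least 29.5-fold higher against 3 counts over the 4 spleen libraries. *Egr2* had 1 UMI in spleen (ratio of sums 111, counting interval 19.8 to 4383). Like *Nr4a2* and *Nr4a3*, *Egr2* passed the low-count filter through its tumor UMIs, and so did *Egr1* and *Fosb*. Part of the count of 9 genes thus follows from that filter.

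*Fos* was already present in spleen monocytes, at 418, 285, 299 and 368 CPM, and stood at 5069.6, 4671, 3532 and 3139 CPM in the tumor (log2 3.97 ± 0.12, edgeR adjusted p = 6.5e-14, 4 of 4 conditions). *Fosb* had 8 UMIs in spleen against 215, 266, 205 and 289 CPM in tumor (log2 7.06 ± 0.28, edgeR adjusted p = 1.1e-12, 4 of 4 conditions), and without *Aire*+/+ isotype the log2 difference was 8.38. *Jun* stood at 1329, 1090.4, 1037 and 955 CPM in tumor and 68.3, 57.5, 71.8 and 166 CPM in spleen (log2 4.14 ± 0.20, edgeR adjusted p = 1.0e-11, 4 of 4 conditions). *Egr1* had 10 UMIs in spleen monocytes against 127, 155, 185 and 221 CPM in tumor (log2 6.19 ± 0.26, edgeR adjusted p = 2.5e-12, 4 of 4 conditions). Macrophages, dendritic cells and neutrophils did not reach 20 cells in each of the 8 libraries, so *Fos* and the other members were not compared between tissues in them.

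Other genes of the same response were read from fixed lists, by counts and medians. In CD8+ T cells of the CD8+ sort, where 4260 of the 11331 genes tested were higher in tumor and 4496 lower, 7 of 9 tested AP-1 and EGR genes outside the 9 were higher in tumor and 0 lower, with a median log2 of 2.18. *Fosl2*, another FOS family gene, differed by a log2 of 4.53 ± 0.08 (edgeR adjusted p = 2.4e-08, 4 of 4 conditions). Of 20 further immediate early genes 17 were higher and 3 lower, with a median log2 of 2.23, *Rgs1* among the former at 6.37 ± 0.15 (edgeR adjusted p = 5.8e-08, 4 of 4 conditions) and *Klf2*, a factor of resting T cells, among the latter at -1.66 ± 0.11 (edgeR adjusted p = 6.6e-06, lower in 4 of 4 conditions). Of 14 feedback regulators, which include phosphatases of MAP kinases, 14 were higher with a median log2 of 1.90, and *Dusp1* differed by 5.14 ± 0.12 (edgeR adjusted p = 4.9e-08, 4 of 4 conditions). Of 12 tested genes of the antigen receptor response 11 were higher and 1 lower, with a median log2 of 5.90, and *Pdcd1*, the gene of PD1, differed by 7.10 ± 0.11 (edgeR adjusted p = 1.2e-08, 4 of 4 conditions). Of 6 tested upstream factors 2 were higher and 3 lower, with a median log2 of -0.28, *Crem* being the highest at 4.25 ± 0.08 (edgeR adjusted p = 2.4e-08, 4 of 4 conditions).

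The same lists are given for the other cell types in that order, as genes higher and lower of those tested. Over all genes tested these were 3124 and 3244 of 10266 in *Ccl5*-positive CD8+ T cells, 2238 and 2243 of 7946 in CD8+ T cells of the CD45+ sort, 619 and 506 of 4289 in CD4+ T cells, 1655 and 1408 of 7316 in NK cells and 2404 and 2162 of 8833 in monocytes. *Ccl5*-positive CD8+ T cells had 7 and 0 of 8, 17 and 3 of 20, 13 and 0 of 14, 11 and 0 of 12, and 2 and 3 of 6, with median log2 values of 2.41, 2.34, 1.91, 4.79 and -0.26. CD8+ T cells of the CD45+ sort had 6 and 0 of 6, 17 and 2 of 20, 11 and 0 of 12, 9 and 1 of 12, and 1 and 1 of 5, with medians of 3.74, 2.21, 1.31, 5.21 and -0.22. Within CD8+ T cells the antigen receptor list thus had the highest median of the 5 lists in each of these gates. CD4+ T cells had 4 and 0 of 4, 17 and 0 of 19, 8 and 1 of 10, 5 and 1 of 8, and 1 and 0 of 2, with medians of 3.89, 2.78, 1.80, 2.63 and 2.02. NK cells had 5 and 0 of 6, 16 and 2 of 19, 8 and 0 of 12, 6 and 3 of 9, and 1 and 0 of 5, with medians of 2.16, 1.58, 0.81, 1.17 and -0.34. Monocytes had 6 and 1 of 8, 18 and 0 of 20, 10 and 0 of 11, 3 and 2 of 5, and 1 and 1 of 7, with medians of 2.66, 2.64, 2.97, 2.47 and 0.08.

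Tumors were dissociated with enzymes and spleens by mechanical dispersion, as stated for flow cytometry, so the tissue and the way in which cells were freed cannot be told apart for any of the 9 genes. Heat shock genes, which also respond to handling, were read beside the 9 genes, and their part in the tissue differences was not tested. In CD8+ T cells of the CD8+ sort 2 of 10 were higher and 1 lower, with a median log2 of 0.07, and their summed level was 5165, 5223, 5544 and 5252 CPM in tumor and 4274, 3828, 5401 and 5434 CPM in spleen, *Hspa8* being the most abundant. *Hspa1a* was higher in tumor (log2 2.43 ± 0.32, edgeR adjusted p = 2.0e-04, 4 of 4 conditions) and *Hspe1* lower (log2 -0.69 ± 0.06, edgeR adjusted p = 1.4e-05, lower in 4 of 4 conditions). The counts were 2 higher and 2 lower of 10 in *Ccl5*-positive cells, 2 and 2 of 10 in CD8+ T cells of the CD45+ sort, 1 and 1 of 8 in CD4+ T cells, 6 and 0 of 8 in NK cells and 5 and 2 of 10 in monocytes, with median log2 values of 0.16, 0.03, 0.08, 0.99 and 0.18. Markers of erythroid, platelet, stromal, epithelial and plasma cells were near 0 in CD8+ T cells of the CD8+ sort, apart from the erythroid genes at 213 CPM in the *Aire*+/+ isotype spleen, with *Hbb-bs* at 161 CPM. Macrophages of the tumor held *Pf4* at 199.8, 121, 83.4 and 23.8 CPM, a gene that macrophages also express.

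Within CD45+ tumor libraries the 9 genes had different orders across cell types, each given as the median over libraries with at least 20 cells of the type, for types with 3 or more such libraries. The ranges of neighbours in an order overlapped except where stated. *Nr4a1* was highest in neutrophils (1519 CPM, 3 libraries) and then in monocytes (1057 CPM), whose ranges did not overlap. The *Aire*-/- aPD1 library, left out with 10 neutrophils, had *Nr4a1* at 709.7 CPM in them, below the monocyte range of 1019 to 1129.7 CPM. *Nr4a1* stood at 795 CPM in conventional dendritic cells, 683 in CD4+ T cells, 447 in macrophages and 444 in regulatory T cells. Its level was 374 CPM in NK cells, 325 in CD8+ T cells and 231 in mature dendritic cells. *Nr4a2* ran from 262 CPM in mature and 261 CPM in conventional dendritic cells over 224 in CD8+ T cells, 147 in monocytes, 145 in NK cells, 106 in neutrophils, 104 in macrophages and 96.5 in CD4+ T cells to 50.3 in regulatory T cells, and each neighbour overlapped the next. *Nr4a3* was highest in mature dendritic cells, at 363, 364, 509 and 413 CPM, above the range of each other type. It followed in neutrophils at 96.5 CPM, conventional dendritic cells at 88.7, CD8+ T cells at 65.4, NK cells at 59.2, CD4+ T cells at 50.8, macrophages at 32.1, monocytes at 28.4 and regulatory T cells at 25.3.

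*Egr1* was highest in neutrophils, at 1957, 1881 and 1487 CPM in the 3 libraries with enough of them, above each other type. Conventional dendritic cells followed at 255 CPM, macrophages at 214, monocytes at 169.6, regulatory T cells at 114, NK cells at 98.0, CD8+ T cells at 86.0, CD4+ T cells at 70.5 and mature dendritic cells at 24.4. *Egr2* was low in each type, from 42.3 CPM in neutrophils, 38.5 in macrophages and 32.8 in monocytes over 19.2 in conventional dendritic cells, 14.2 in NK cells, 14.0 in CD4+ T cells, 9.37 in CD8+ T cells and 4.56 in mature dendritic cells to 2.04 in regulatory T cells.

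*Fos* and *Jun* were highest in myeloid cells. *Fos* stood at 5029 CPM in neutrophils, 4572 in macrophages, 4101 in monocytes and 2990.1 in conventional dendritic cells, and the range of the last did not overlap the 1232 CPM of CD4+ T cells. Within each library with enough neutrophils, *Fos* was higher in macrophages (5751, 5144 and 4001 CPM) than in neutrophils (5029, 5104 and 3151 CPM). The left-out *Aire*-/- aPD1 library had *Fos* at 3542 CPM in macrophages and 1858 CPM in its 10 neutrophils. It was lower in mature dendritic cells (989 CPM), regulatory T cells (437), CD8+ T cells (324) and NK cells (181). *Jun* ran from 1091 CPM in macrophages, 1064 in monocytes, 918 in conventional dendritic cells and 803 in neutrophils to 521 in mature dendritic cells, 376 in CD4+ T cells, 340.4 in regulatory T cells, 271 in NK cells and 185 in CD8+ T cells. For *Jun* neutrophils did not overlap mature dendritic cells, nor did NK cells overlap CD8+ T cells. The left-out neutrophils of *Aire*-/- aPD1 had *Jun* at 626 CPM, below the 709 CPM of mature dendritic cells in *Aire*+/+ aPD1. *Fosb* ran from 306 CPM in macrophages, 258 in conventional dendritic cells, 240.2 in monocytes and 225 in neutrophils over 145 in CD4+ T cells, 102 in mature dendritic cells, 97.2 in CD8+ T cells and 72.7 in NK cells to 43.4 in regulatory T cells, and the last 2 did not overlap. *Junb* was highest in neutrophils at 6669 CPM, above the range of CD4+ T cells at 3709 and monocytes at 3537, and then stood at 2994 in macrophages, 2575 in conventional dendritic cells, 2261 in mature dendritic cells, 2002 in CD8+ T cells, 1942 in regulatory T cells and 1732 in NK cells. Monocytes, macrophages and conventional dendritic cells did not overlap as neighbours in *Junb*.

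**Figure D2:**
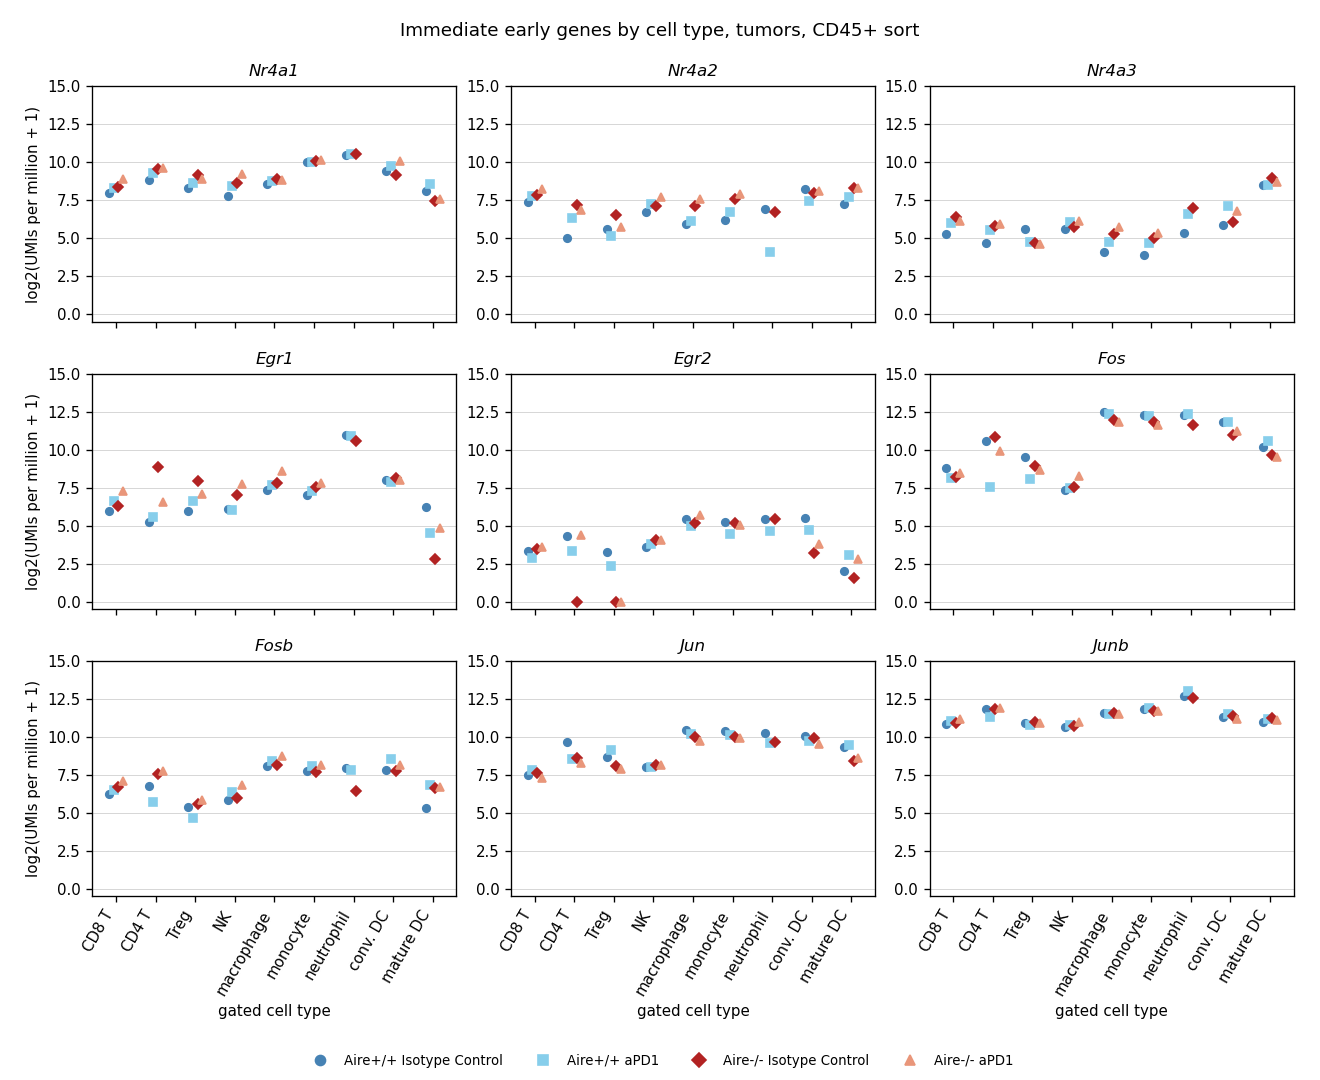
Levels of the 9 genes by cell type in the CD45+ tumor libraries, as log2 of CPM plus 1, with 1 point per condition and 1 panel per gene, for types with at least 20 cells in a library. *Nr4a3* is highest in mature dendritic cells (363 to 509 CPM), *Egr1* in neutrophils (1487 to 1957 CPM), and *Fos* is above 2000 CPM in each library of macrophages, monocytes and conventional dendritic cells.

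In CD45+ spleen libraries, among types chosen by the same minimum, monocytes had the highest *Nr4a1* level (median 557 CPM) and the highest *Fos* level (333 CPM), in both cases without overlap with the next type. Neutrophils reached 20 cells in 1 spleen library alone (29 cells, *Aire*+/+ isotype), with *Nr4a1* at 129 CPM and *Fos* at 818 CPM, the latter above each monocyte library. Conventional dendritic cells also had too few libraries to be ranked. Their *Fos* level was 330.5 CPM in *Aire*+/+ isotype (29 cells), within the monocyte range, and 111 CPM in *Aire*-/- isotype (22 cells). *Junb* stood at 609 CPM in regulatory T cells, 563 in NK cells, 523 in monocytes, 277 in CD4+ T cells, 203 in CD8+ T cells and 121 in B cells. B cells, of which the spleen libraries held 1386, 1439, 1334 and 1701, had *Nr4a1* at 16.4, 20.4, 23.3 and 23.6 CPM and *Nr4a2* at 0.697, 0.291, 0 and 0 CPM.

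The comparisons between conditions ask how the genes in tumor cells differ with loss of *Aire* and with the blockade of PD1. Each rests on 1 library a side, and the ratios were not tested. Intervals cover counting error only, and a gene is counted where its CPM ratio was past 1.5-fold. The 4 ratios of a cell type use each library in 2 of them. *Egr1* in CD8+ T cells of the CD8+ sort was past 1.5-fold in 4 of 4 contrasts and always higher in the *Aire*-/- or aPD1 library. Its log2 ratio of *Aire*-/- over *Aire*+/+ was 0.60 (0.52 to 0.68) under isotype and 0.69 (0.62 to 0.75) under aPD1, and that of aPD1 over isotype was 0.59 (0.51 to 0.66) in *Aire*+/+ and 0.67 (0.60 to 0.74) in *Aire*-/-.

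*Nr4a1* was higher with aPD1, at log2 ratios of 0.72 (0.68 to 0.76) in *Aire*+/+ and 0.61 (0.57 to 0.65) in *Aire*-/-, and differed less with genotype, at 0.42 (0.37 to 0.46) under isotype and 0.31 (0.27 to 0.35) under aPD1. *Fos* differed in direction between contrasts. It was lower with aPD1 in *Aire*+/+ at -0.44 (-0.49 to -0.39) and higher in *Aire*-/- at 0.57 (0.51 to 0.62), and *Aire*-/- was below *Aire*+/+ under isotype at -0.35 (-0.41 to -0.30) and above it under aPD1 at 0.65 (0.60 to 0.71). *Jun* was lower in *Aire*-/- under both treatments, at -0.47 (-0.53 to -0.41) and -0.37 (-0.43 to -0.30), within 1.5-fold. *Fosb* was past 1.5-fold for aPD1 over isotype in *Aire*-/- at 0.67 (0.57 to 0.76). *Nr4a2*, *Nr4a3*, *Egr2* and *Junb* stayed within 1.5-fold in the 4 contrasts. The make-up of these cells also differed, with 1217 of 2494, 1234 of 2119, 897 of 1782 and 1497 of 2155 *Ccl5*-positive. Within *Ccl5*-positive cells the aPD1 ratios of *Nr4a1* were 0.63 (0.58 to 0.69) in *Aire*+/+ and 0.45 (0.40 to 0.51) in *Aire*-/-, the latter within 1.5-fold, and those of *Egr1* were 0.92 (0.80 to 1.03) and 0.75 (0.65 to 0.85). The median ratio of the 9 genes there was 0.06, 0.01, 0.33 and 0.45 for genotype under isotype and aPD1 and for aPD1 in *Aire*+/+ and *Aire*-/-, and the last 2 were 0.12 and 0.33 after thinning.

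For *Aire*-/- over *Aire*+/+ under isotype 1 of 9 genes was past 1.5-fold, where 5.50% of 10645 genes were, with a median log2 ratio of 0.07 over the 9 genes and -0.03 over the 10645. Under aPD1 the same contrast had 2 of 9 genes, against 5.0% of 10549, with medians of 0.01 and -0.01. For aPD1 over isotype in *Aire*+/+ there were 2 of 9 genes, against 4.0% of 10712, with medians of 0.35 and 0.01, and the former was 0.25 after thinning. In *Aire*-/- there were 3 of 9 genes, against 3.45% of 10462, with medians of 0.30 and 0.03. Each gene counted in these 4 contrasts was higher in the *Aire*-/- or aPD1 library. The heat shock genes had median log2 ratios of 0.27, -0.05, 0.19 and -0.15 in the same contrasts, and their part in the ratios was not tested.

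The ratios of *Egr1* in CD8+ T cells of the CD45+ sort were 0.33 (-0.05 to 0.71), 0.70 (0.48 to 0.92), 0.66 (0.29 to 1.04) and 1.03 (0.81 to 1.26) in the same order of contrasts, higher in *Aire*-/- or aPD1 in each. *Nr4a1* was also higher in each, at 0.41 (0.23 to 0.59), 0.62 (0.50 to 0.75), 0.31 (0.12 to 0.50) and 0.52 (0.41 to 0.63). *Fos* again had both directions, at -0.58 (-0.74 to -0.43), 0.33 (0.20 to 0.47), -0.68 (-0.84 to -0.51) and 0.24 (0.12 to 0.36). *Nr4a3* was past 1.5-fold under isotype for genotype at 1.10 (0.66 to 1.55) and in *Aire*+/+ for aPD1 at 0.70 (0.24 to 1.18), but its lowest library rests on 56 UMIs.

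In these cells 1 of 8 genes with enough UMIs was past 1.5-fold for genotype under isotype, against 8.45% of 6377 genes, and 4 of 9 (*Nr4a1*, *Egr1*, *Egr2* and *Fosb*) under aPD1, against 9.31% of 8543. For aPD1 over isotype 3 of 8 were past it in *Aire*+/+ (*Nr4a3* and *Egr1* higher, *Fos* lower), against 9.42% of 6053, and 1 of 9 in *Aire*-/-, against 8.73% of 8628. The *Egr2* ratio of 0.83 under aPD1 had an interval of -0.03 to 1.80. The median log2 ratio of the members was 0.37, 0.46, 0.34 and 0.28, against 0.05, 0.04, 0.04 and 0.04 over the genes compared, and that of the heat shock genes was 0.44, -0.26, 0.41 and -0.35, whose part in the ratios was not tested. The second of these, genotype under aPD1, was 0.61 after thinning and 0.61 as a mean over cells.

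Tumor macrophages numbered 1067, 713, 505 and 188. *Nr4a2* stood at 61.3, 71.1, 138 and 193 CPM in them, higher in both *Aire*-/- libraries than in both *Aire*+/+ libraries. Its log2 ratio for genotype was 1.17 (1.04 to 1.29) under isotype and 1.44 (1.27 to 1.61) under aPD1, and at equal depth it was found in 10.9%, 11.8%, 19.2% and 25.5% of cells. *Nr4a3* had the same order at 15.8, 25.8, 38.3 and 53.8 CPM, with ratios for genotype of 1.28 (1.03 to 1.52) and 1.06 (0.74 to 1.37), but at equal depth its shares were 3.09%, 6.17%, 6.73% and 6.91%, with intervals under aPD1 of 4.52% to 8.2% and 3.73% to 11.5% that overlap. *Fos* was lower in the *Aire*-/- libraries, at 5751, 5144, 4001 and 3542 CPM, with ratios of -0.52 (-0.54 to -0.51) and -0.54 (-0.57 to -0.50), and *Jun* followed it at 1422, 1167, 1016 and 830.0 CPM, with ratios of -0.49 (-0.52 to -0.45) and -0.49 (-0.56 to -0.42). *Egr1* stood at 165, 202, 226 and 390.1 CPM and was past 1.5-fold for genotype under aPD1 at 0.95 (0.84 to 1.06) and for aPD1 in *Aire*-/- at 0.79 (0.67 to 0.91). *Nr4a1* at 386, 435, 483 and 459.8 CPM and *Junb* at 3063, 2957, 3032 and 2943 CPM were within 1.5-fold throughout.

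For genotype 2 of 9 genes in macrophages were past 1.5-fold under isotype, against 9.65% of 9725, and 4 of 9 under aPD1 (*Nr4a2*, *Nr4a3*, *Egr1* and *Egr2*), against 20.4% of 8860. In the *Aire*-/- aPD1 library 1 cell held 23 of the 115 *Egr2* UMIs. For aPD1 over isotype 1 of 9 was past it in *Aire*+/+ (*Nr4a3*), against 4.04% of 9894, and 2 of 9 in *Aire*-/- (*Egr1* and *Fosb*), against 12% of 8314. All of these were higher in the *Aire*-/- or aPD1 library. The median log2 ratio of the 9 genes was 0.06, 0.36, 0.17 and 0.49 in these 4 contrasts. After thinning the second and the fourth were 0.01 and -0.10, and as a mean over cells they were 0.29 and 0.41. Both use the 188 cells of *Aire*-/- aPD1, and the reason for the change with thinning was not tested. Heat shock genes had medians of 0.12, -0.53, 0.27 and -0.27 there.

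Tumor monocytes, cells that can give rise to these macrophages, had the same order for *Nr4a2*, at 73.4, 104, 191 and 246 CPM, with ratios for genotype of 1.38 (1.25 to 1.52) under isotype and 1.25 (1.11 to 1.39) under aPD1. The ratios of *Nr4a3* for genotype were 1.20 (0.87 to 1.53) and 0.64 (0.33 to 0.96), from 13.9, 24.9, 31.8 and 38.9 CPM. *Fos* was lower in *Aire*-/- at -0.52 (-0.54 to -0.50) and -0.57 (-0.60 to -0.54). For genotype 2 of 9 genes were past 1.5-fold under isotype (*Nr4a2* and *Nr4a3*), against 11.6% of 8616, and 3 of 9 under aPD1 (with *Egr2* at 0.60, 0.25 to 0.96), against 14.8% of 7966. For aPD1 over isotype 2 of 9 were past it in *Aire*+/+, *Nr4a3* higher at 0.84 (0.50 to 1.18) and *Egr2* lower at -0.82 (-1.12 to -0.53), against 4.97% of 8707, and 0 of 9 in *Aire*-/-, against 7.47% of 7801. The median log2 ratios of the 9 genes were -0.07, 0.13, 0.03 and 0.06, and those of the heat shock genes 0.30, -0.17, 0.06 and -0.23.

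Other tumor types of the CD45+ sort did not share 1 direction. The median log2 ratios of their members with enough UMIs (4 to 9 genes), in the same order of contrasts, were 0.52, 0.58, -0.86 and -0.34 in CD4+ T cells, 0.12, 0.35, -0.30 and -0.27 in regulatory T cells, 0.19, 0.47, 0.33 and 0.57 in NK cells, -0.11, -0.24, 0.01 and 0.17 in conventional dendritic cells and -0.16, -0.12, 0.26 and 0.01 in mature dendritic cells. In neutrophils, with too few cells in *Aire*-/- aPD1, they were -0.50 for genotype under isotype and -0.02 for aPD1 in *Aire*+/+. Over all genes compared these medians lay between -0.10 and 0.11.

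**Figure D3:**
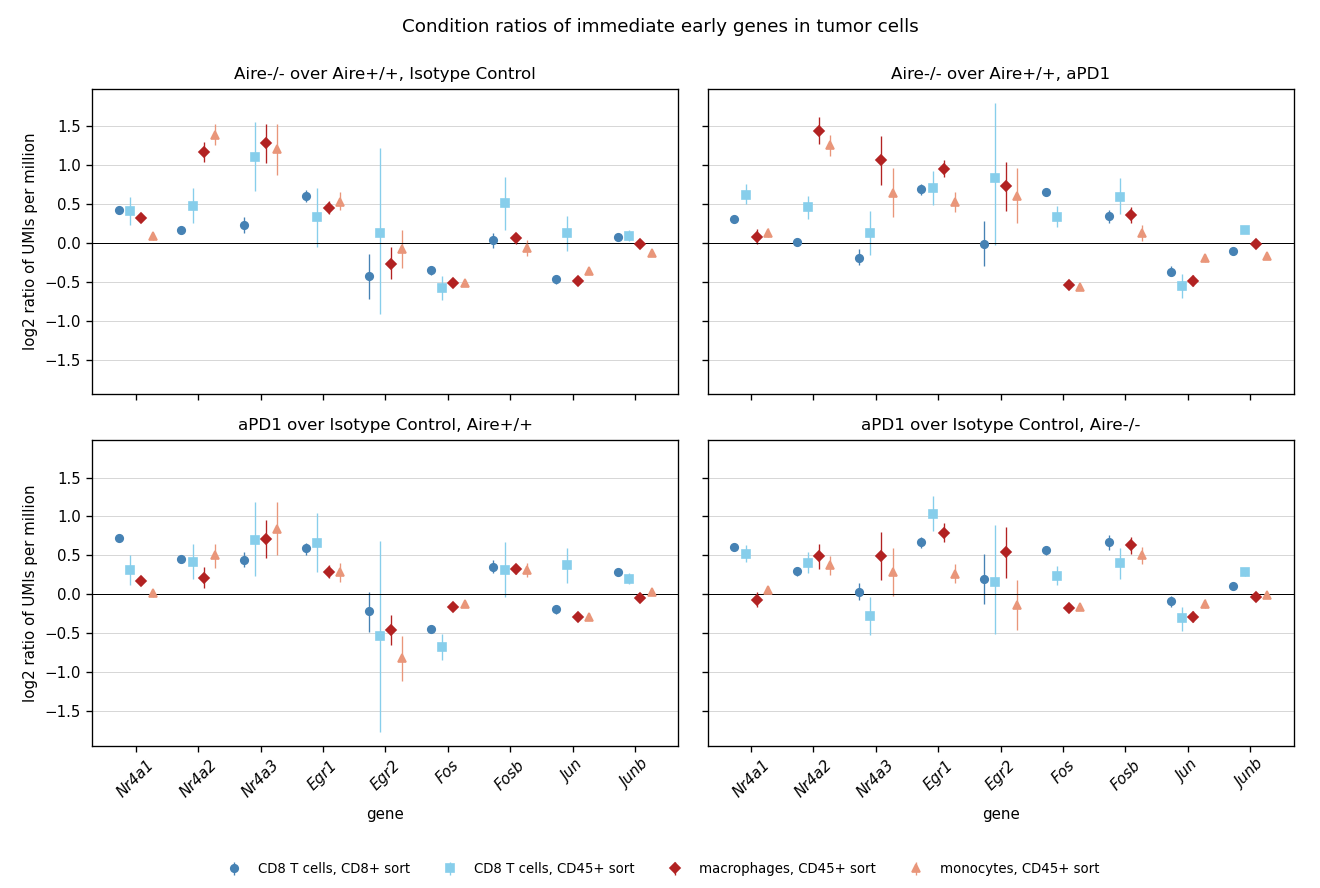
Log2 ratios of CPM between conditions for the 9 genes in tumor CD8+ T cells of both sorts, macrophages and monocytes, with exact 95% intervals for counting error, for *Aire*-/- over *Aire*+/+ under isotype and aPD1 and for aPD1 over isotype in each genotype. *Nr4a2* in macrophages (1.17 and 1.44) and monocytes (1.38 and 1.25) is higher in *Aire*-/-, and *Fos* in CD8+ T cells of the CD8+ sort has aPD1 ratios of -0.44 in *Aire*+/+ and 0.57 in *Aire*-/-.

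Across 61 pairs of cell type and CD45+ library, the members *Fos* and *Jun* had a Pearson r of 0.91, *Fosb* and *Jun* 0.90, *Jun* and *Junb* 0.89 and *Nr4a2* and *Nr4a3* 0.85, while *Nr4a3* and *Egr2* had the lowest, 0.23. Among 4765 other genes the most alike was *Nfkbiz* for *Nr4a1* (r of 0.89), *Slc3a2* for *Nr4a2* (0.85), *Bcl2a1b* for *Nr4a3* (0.85), *Plk3* for *Egr1* (0.81) and *Vegfa* for *Egr2* (0.68). For the AP-1 members it was *Atf3* for *Fos* (0.97), *Ifrd1* for *Fosb* (0.94), *Cdkn1a* for *Jun* (0.94) and *Dusp1* for *Junb* (0.96). These values describe pairs that share libraries, tissues and depth, and carry no p.

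*Egr1* lies on mouse chromosome 18 (34859823 to 34864984, plus strand, build GRCm38). On the same build *Nr4a1* lies on chromosome 15 (101254269 to 101274795, plus), *Nr4a2* on chromosome 2 (57106830 to 57124003, minus), *Nr4a3* on chromosome 4 (48045153 to 48086447, plus) and *Egr2* on chromosome 10 (67535475 to 67542188, plus). *Fos* lies on chromosome 12 (85473890 to 85477273, plus), *Fosb* on chromosome 7 (19302696 to 19310051, minus), *Jun* on chromosome 4 (95049034 to 95052222, minus, with 1 exon) and *Junb* on chromosome 8 (84974484 to 84978718, minus). *Jun* overlaps the antisense gene *Junos* and *Junb* overlaps *Prdx2*, each on the other strand. Which end of the RNA these libraries read is stated in different ways in the study's methods. Whether UMIs of *Junb* or *Jun* include reads of an overlapping gene was not tested.

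Promoters were read for 8 of the 9 genes from RefSeq windows on build GRCm38.p6, and *Egr1* is missing from that table. Motifs were searched on both strands in the 250 bases before the start of 32851 windows.

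TGACG, part of the cAMP response element bound by CREB, was found in 17.8% of all windows and in at least 1 window of 7 of the 8 genes, with *Jun* the exception and *Egr2* in 3 of its 5 windows. The full element TGACGTCA, which contains it, was in 1.55% of windows and in 0 of the 8. The AP-1 site TGANTCA was in 6.75% of windows and in 0 of the 8, and the NR4A site AAAGGTCA in 1.34% and in 0 of the 8. The EGR site GCGNGGGCG was in 4.7% of windows and in those of *Nr4a1*, *Nr4a2* and *Fosb*. The CArG box, bound by SRF, was in 1.47% of windows and in that of *Egr2*, in 4 of its 5 windows. Matches are a description of these letters. The 250 bases before the start of *Nr4a1* (chr15:101266596-101266845, plus strand, inside the span of a longer *Nr4a1* transcript), *Nr4a2* (chr2:57124004-57124253, minus), *Fos* (chr12:85473640-85473889, plus) and *Junb* (chr8:84978749-84978998, minus) are shown for 2 NR4A and 2 AP-1 genes that passed as higher in tumor in each of the 6 comparisons of tissues, as *Fosb* and *Jun* also did. No annotated exon lies in them, and capitals mark TGACG or its reverse complement CGTCA.
Nr4a1: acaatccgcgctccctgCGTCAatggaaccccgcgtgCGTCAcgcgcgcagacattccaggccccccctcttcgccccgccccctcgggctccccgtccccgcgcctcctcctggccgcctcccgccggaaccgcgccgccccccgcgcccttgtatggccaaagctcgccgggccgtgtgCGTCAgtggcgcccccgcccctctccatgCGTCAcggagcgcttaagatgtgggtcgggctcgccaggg
Nr4a2: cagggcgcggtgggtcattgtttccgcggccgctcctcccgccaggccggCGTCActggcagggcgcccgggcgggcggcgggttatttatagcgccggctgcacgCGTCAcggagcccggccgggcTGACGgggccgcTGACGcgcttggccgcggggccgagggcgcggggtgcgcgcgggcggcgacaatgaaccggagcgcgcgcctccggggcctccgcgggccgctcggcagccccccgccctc
Fos: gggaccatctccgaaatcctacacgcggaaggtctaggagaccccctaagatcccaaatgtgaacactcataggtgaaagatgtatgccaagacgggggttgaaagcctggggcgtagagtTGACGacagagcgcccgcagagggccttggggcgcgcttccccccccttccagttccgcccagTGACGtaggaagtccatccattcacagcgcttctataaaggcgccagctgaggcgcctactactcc
Junb: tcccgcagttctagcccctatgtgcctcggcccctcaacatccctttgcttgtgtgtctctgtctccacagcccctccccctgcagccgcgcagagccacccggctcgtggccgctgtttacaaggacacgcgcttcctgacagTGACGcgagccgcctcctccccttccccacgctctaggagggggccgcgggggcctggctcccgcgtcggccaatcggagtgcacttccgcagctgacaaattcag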

How the data were processed

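The authors deposited UMI counts per gene and cell barcode, made with Cell Ranger, for barcodes called as cells. The submitters' processing notes name GRCm38. The study's methods give a Cell Ranger version in the paragraph on T cell receptor libraries. The tables hold 25127 rows, of which 37 are mitochondrial, 13 carry an Ensembl identifier alone and 27 are vector rows, which were left out of the symbols. UMIs of rows with the same symbol were summed. Members, gene lists and cell type markers were chosen with earlier results of these data known.

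Cells with at least 200 genes and at most 20% mitochondrial UMIs were kept. Cells that met the markers of more than 1 type (0 to 5 per library) were left out, no other doublets were removed, and T, NK and B cells had at most 0.3% myeloid UMIs. UMIs were summed per library and cell type. Types with at least 20 cells in each of the 8 libraries of a sort were tested with edgeR 4.0.16 in R 4.3.3 (quasi-likelihood fit, TMM scaling, filterByExpr), with condition as a block, tissue as the tested term and 3 residual degrees of freedom. P-values were adjusted by Benjamini and Hochberg over all genes tested, at a threshold of 0.05. The low-count filter can keep a gene through 1 tissue alone, and such a gene can pass only as higher there.

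Conditions were compared by the ratio of CPM, for genes with at least 50 UMIs over the pair, with exact conditional 95% intervals. Levels have exact Poisson intervals and shares of cells exact Clopper-Pearson intervals, all for counting error only. A gene with 0 UMIs in 1 tissue was set against 3 counts. Shares are given as found and after thinning each cell to 2000 UMIs, with shallower cells left out. Likeness is the Pearson r of log2 of CPM plus 10, among genes with at least 50 CPM in 5 pairs. Each of the 9 members is named. Of the other lists (AP-1 and EGR genes, further immediate early genes, feedback regulators, antigen receptor response genes, upstream factors and heat shock genes) the named genes are among those past the test, and were picked after their values were seen.

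Alternatives were RLE size factors, DESeq2 1.42.0, no filter on low counts, no condition block, leaving out each condition, doubled marker minimums, thinned cells, at most 10% mitochondrial UMIs, cells without *Hspa1a* or *Hspa1b*, leaving out the 5% of cells with most UMIs and, for ratios, a mean over cells. Other values were computed with pandas 2.3.3, scipy 1.17.1 and numpy 2.4.6 in Python 3.11.15. The tests were checked on simulated data.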

Additional observations from a re-analysis of the deposited data

Results flagged for a closer look

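*Fos* in tumor CD8+ T cells had aPD1 over isotype ratios in opposite directions in the 2 genotypes. The log2 ratio was higher in *Aire*-/- than in *Aire*+/+ by 1.01 in the CD8+ sort and by 0.92 in the CD45+ sort. This difference was not tested, since each condition has 1 library per sort.

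In some sets of 4 libraries of a tissue, cell type and gene, 1 library stood apart, by a gap that is large beside the whole range and can be small beside the level. This held for 12 of 81 sets with at least 50 UMIs over the 4 libraries, which leaves out *Egr1* in spleen NK cells with 48. Chance gives about 1 in 20 for separate sets, and *Ccl5*-positive cells are also counted among the CD8+ T cells. In CD8+ T cells of the CD8+ sort, *Nr4a3* stood at 4.72 CPM in the *Aire*+/+ aPD1 spleen against 2.58 to 2.76 CPM in the other spleens, and *Fos* at 5.37 CPM in the *Aire*-/- isotype spleen against 8.77 to 9.27 CPM. In *Ccl5*-positive cells the *Aire*+/+ aPD1 spleen stood apart for *Nr4a2* at 12.7 CPM (others 2.04 to 2.82), for *Nr4a3* at 13.6 CPM (1.33 to 2.04) and for *Egr1* at 22.1 CPM (9.19 to 11.2). *Egr2* in *Ccl5*-positive cells stood at 14.2 CPM in the *Aire*+/+ isotype tumor against 9.96 to 10.6 CPM. *Junb* in CD8+ T cells of the CD45+ sort stood at 228 CPM in the *Aire*+/+ isotype spleen against 201 to 204 CPM, with a counting interval of 198 to 261.

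In tumor CD4+ T cells without *Foxp3*, *Egr1* stood at 453 CPM in *Aire*-/- isotype (others 37.4 to 94.9), with 53 of its 106 UMIs in 1 cell. *Jun* in these cells stood at 816 CPM in *Aire*+/+ isotype (308 to 389), and *Junb* at 2518 CPM in *Aire*+/+ aPD1 (3689.7 to 3757). *Fos* in tumor NK cells stood at 300.4 CPM in *Aire*-/- aPD1 against 163 to 186 CPM, and *Jun* in spleen monocytes at 166 CPM in *Aire*-/- aPD1 against 57.5 to 71.8 CPM. The causes were not tested.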

How the results depend on the processing

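The number of the 9 genes higher in tumor stayed within 1.5 times its value under each of the 76 alternatives run. Member log2 differences kept their direction and side of the threshold in 642 cases, came past it in 5, fell short of it in 1 and reversed in 3. In CD8+ T cells of the CD45+ sort, *Egr2* (0.15) was -0.14 without *Aire*-/- isotype and -0.34 without *Aire*-/- aPD1 (range without 1 condition -0.34 to 1.20). In CD4+ T cells *Egr1* (1.14) was -0.27 without *Aire*-/- isotype (range -0.27 to 1.68). The cause was not tested.

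Genes past the test numbered 8756 in CD8+ T cells of the CD8+ sort, 6368 in *Ccl5*-positive, 4481 in CD8+ T cells of the CD45+ sort, 1125 in CD4+ T cells, 3063 in NK cells and 4566 in monocytes. With thinned cells they numbered 3740 in *Ccl5*-positive, 1811 in CD8+ T cells of the CD45+ sort, 501 in CD4+ T cells, 1018 in NK cells and 2432 in monocytes, from fewer UMIs. With DESeq2 they numbered 673 in CD4+ T cells and 1983 in NK cells. With no replicate block they numbered 8799, 6450, 4449, 1225, 3125 and 4517 in the first order. Without 1 condition they ranged over 8189 to 8327, 5643 to 5961, 3888 to 4410, 872 to 1056, 2443 to 2967 and 3783 to 4727.

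Of the median condition ratios of the 9 genes in CD8+ T cells, macrophages and monocytes, 89 stayed within their spread and 7 moved, and of those of the other types 148 stayed and 12 moved. With thinned cells they were 0.25 for aPD1 over isotype in *Aire*+/+ CD8+ T cells of the CD8+ sort (0.35 otherwise), 0.61 for genotype under aPD1 in those of the CD45+ sort (0.46, and 0.61 as a mean over cells), 0.01 for genotype under aPD1 in macrophages (0.36), -0.10 for aPD1 over isotype in *Aire*-/- macrophages (0.49) and 0.03 for genotype under aPD1 in monocytes (0.13). Without cells with *Hspa1a* or *Hspa1b* genotype under isotype was 0.14 in macrophages (0.06). Not run for CD4+ T cells, for lack of 20 cells, were the doubled marker minimums and the cells without *Hspa1a* or *Hspa1b*, nor were 8 condition ratios in CD4+ T, regulatory T and neutrophil types.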

Other observations

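Mature dendritic cells of the tumor (55, 42, 65 and 71 cells) had *Egr1* at 72.7, 21.7, 5.92 and 27.1 CPM and *Fos* at 1174, 1490.4, 804 and 716 CPM, below conventional dendritic cells (61, 55, 39 and 39 cells) with *Fos* at 3632, 3666, 2017 and 2349 CPM. Regulatory T cells of the tumor (106, 66, 27 and 52) had *Nr4a1* at 322, 406, 580.4 and 482 CPM and *Fos* at 741, 264, 479 and 395 CPM. In *Aire*+/+ aPD1, 1 of the 66 regulatory T cells held 113 of the 194 *Fos* UMIs. Spleen CD8+ T cells of the CD8+ sort had *Nr4a2* ratios of *Aire*-/- over *Aire*+/+ of -0.85 (-1.45 to -0.29) under isotype and -1.23 (-1.85 to -0.64) under aPD1, from 38 against 86 and 33 against 91 UMIs. A single cell held 21 of the 38 and 24 of the 86 UMIs under isotype, and 5 of the 33 and 28 of the 91 under aPD1. These differences between conditions and cell types were not tested.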
